A study of Mus musculus with 48 samples.

Results

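The genes described here encode the machinery with which a nerve terminal stores transmitter in vesicles, releases it and takes the vesicle membrane back. They are a fixed list of 35 genes taken by name, and the list was made with earlier results of these data known. It holds 3 synapsins, 3 vesicle membrane proteins, 6 synaptotagmins, 4 SNARE proteins and 5 proteins of the SNARE cycle. The rest are 6 active zone proteins, 5 Rab3 and C2-domain proteins and 3 endocytic proteins. All 35 were found among the 48795 genes of the deposited tables. All 35 also passed the low-count filter that left 20010 genes for testing, and the lowest count of any of them in any mouse was 261 reads.

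Transcripts were counted in cortex taken from 48 mice at 6 months of age, all with C57BL/6 as their listed background. The 3 Msh3 genotypes were each studied without and with Q140. The wild type (WT, 7 mice) is set against Q140 mice (8), the heterozygotes Msh3+/- (9) with Q140 x Msh3+/- mice (8), and the homozygotes Msh3-/- (8) with Q140 x Msh3-/- mice (8). Q140 mice carry 1 copy of a Huntington's disease knock-in allele, in which the mouse Htt gene has an expanded CAG repeat; Msh3 encodes a mismatch repair protein that is known to drive further growth of such repeats. The allele is present in every cell from conception, the repeat length of each mouse was not used here, and the pieces of cortex hold all cell types, so fewer cells of a type and less RNA per cell cannot be told apart in any value below. Each group held 3 to 5 females and 4 males, 24 mice of each sex in all.

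Library totals ran from 35946572 to 64479357 counts, with a mean of 46520957. Markers of cortical excitatory neurons were abundant in every library, with Nrgn, a calmodulin-binding protein of these cells, at a mean of 1140.6 FPKM (fragments scaled by gene length and library total). Htt lay between 237 and 242 mean CPM (counts scaled to a common library total) in all groups. Msh3 went against its label: it was at 24.2 ± 1.06 CPM (SD, n = 7) in WT, 67.4 ± 5.11 (n = 9) in mice labelled Msh3+/- and 109 ± 7.91 (n = 8) in mice labelled Msh3-/- (23.7, 66.6 and 113 in the matching groups with Q140), higher and not lower where the allele is altered. The groups are therefore named as labelled throughout. Choroid plexus markers were high in Msh3-/- female 3, Msh3-/- female 4 and WT male 3. A further 3 libraries, those of Msh3+/- male 2, Q140 male 1 and of Q140 x Msh3-/- male 4, stood off along the second principal component (6.69% of the variance). The comparisons were also fitted without each of these sets of libraries. Values without them are given where a sex call was lost and for some pairs of members.

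A synaptic vesicle is filled with transmitter, tethered by synapsins, docked at the active zone by RIM and Munc13 scaffolds, and fused when synaptotagmin binds calcium and the SNARE proteins of vesicle and plasma membrane zip together. The ATPase NSF then takes the SNARE complex apart, and dynamin, amphiphysin and synaptojanin help to retrieve and uncoat the membrane. Many steps have paralogues used by different cells: Syt1, Vamp2 and Cplx1 or Cplx2 serve most cortical synapses in various mixtures, while Syt2 and Vamp1 are known from fast-spiking, parvalbumin-positive interneurons.

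The levels of the 35 genes spanned a wide range, and their order was given by FPKM, which corrects for gene length. The plasma membrane SNARE Snap25 was the highest, at a mean of 571 FPKM over the 48 mice (486 lowest, 569 median, 625 highest). Next came the complexin Cplx1 at 397 ± 33.2 FPKM (SD, n = 48), the vesicle SNARE Vamp2 at 325 ± 11.5, the endocytic GTPase Dnm1 at 288 ± 12.3 and the fast calcium sensor Syt1 at 253 ± 11.6. In all, 9 of the genes averaged over 200 FPKM, 21 lay between 20 and 200, and 5 were under 20. Of the 34 steps between neighbours in this order, 20 were larger than 1 SD over mice. Syt1 (253), the vesicle protein Syp (244), the complexin Cplx2 (235), the vesicle GTPase Rab3a (232) and the synapsin Syn1 (230) formed a closely spaced run in which neighbours differed by less than their spread.

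Within families, 1 member usually stood well above the rest. Among synapsins, Syn1 averaged 230 FPKM, Syn2 51.7 and Syn3 1.48. Among synaptotagmins, Syt1 was followed by Syt11 (125 FPKM), which does not bind calcium, then Syt5 (53.7), the slow sensor Syt7 (51.0), Syt4 (49.2) and Syt2 (18.4). The Munc13 priming factors stood at 54.2 FPKM for Unc13a and 5.30 for Unc13b, and the RIM scaffolds at 60.7 for Rims1 and 24.7 for Rims2. The calcium sensors Doc2a (11.3 FPKM) and Doc2b (2.28) were low. The NSF adaptors were nearer to each other, with Napb at 76.8 FPKM, Napa at 60.7 and Nsf itself at 105. The large scaffolds bassoon (Bsn) and piccolo (Pclo) averaged 62.6 and 30.2 FPKM. The remaining members fell inside this range: the Rab3 effector Rph3a at 135, the SNARE Stx1a at 127, the vesicle glycoproteins Sv2a and Sv2b at 93.0 and 63.9, the phosphatase Synj1 at 58.7, the GTPase Rab3c at 43.3, amphiphysin (Amph) at 35.8 and Vamp1 at 23.2.

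**Figure D1:**
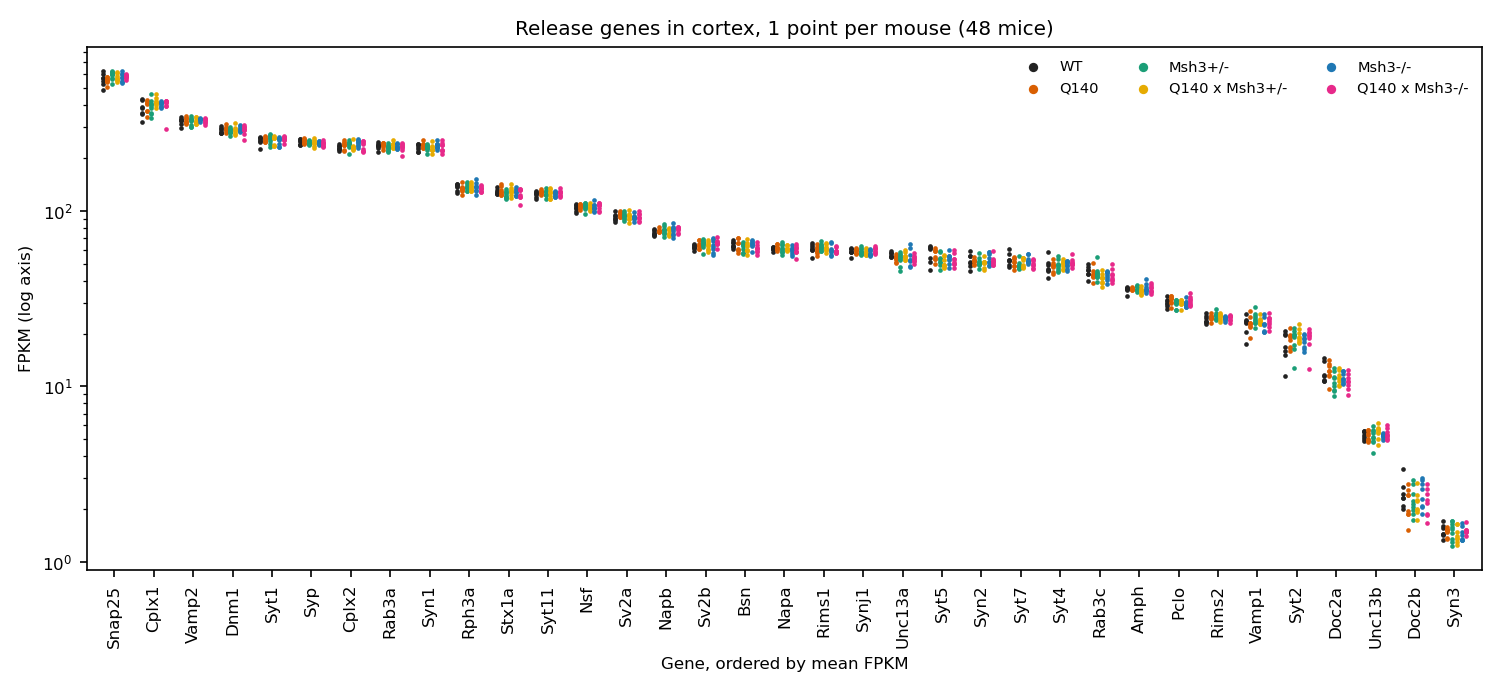
FPKM (log axis) of the 35 release genes in each of the 48 mice, with genes ordered by mean and points coloured by genotype group. The groups overlap for every gene, Snap25 leads at a mean of 571 FPKM, and the widest scatter is that of Doc2b.

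Mice differed little in these genes. The coefficient of variation of CPM over the 48 mice had a median of 5.61% over the members, from 3.38% to 17.9%, beside 10.1% over all 20010 tested genes and 6.09% over the 10039 genes with a mean of at least 10 CPM. Of the members, 34 reached that mean. The 3 most variable were Doc2b, Syt2 and Doc2a, all under 20 FPKM. The highest group mean exceeded the lowest by a median factor of 1.05 over the members and at most by 1.14, and 30 of 35 stayed within a factor of 1.1; the median factor was 1.1 over all tested genes and 1.06 over those with a mean of at least 10 CPM.

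None of the 35 members was called for the Q140 allele. Against WT, 0 of 35 passed an adjusted p of 0.05 in edgeR's quasi-likelihood test with Benjamini-Hochberg adjustment over all tested genes, where 0.01% of all genes did. DESeq2 and limma with voom weights also called 0, and 0 members had an unadjusted p under 0.05 (5.48% of all genes). Unc13a had the smallest p: its FPKM was 53.5 ± 2.10 (SD, n = 8) in Q140 mice (50.6 lowest, 53.8 median, 56.7 highest) and 56.0 ± 1.71 (n = 7) in WT mice (54.2, 55.3 and 58.8), a log2 fold change of -0.07 ± 0.04 (SE, edgeR adjusted p = 0.93). The ranges overlapped. Syt7 at -0.06 ± 0.04 and Sv2a, the binding site of the drug levetiracetam, at 0.05 ± 0.04 followed (edgeR adjusted p = 0.942 for both). Over the members the median log2 fold change was 0.017, with 23 of 35 above 0, beside 0.002 and 50.9% over all genes.

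The intervals say how large a change could have been missed. In Q140 against WT, the 95% interval lay inside a 1.2-fold change either way for 33 of 35 members, against 58.3% of all tested genes. The exceptions were Doc2b (fold interval 0.742 to 1.06) and Syt2 (0.942 to 1.21). A mean of at least 10 CPM was reached by 34 of the members and by 10039 of the 20010 tested genes. No share was computed for genes of similar level, so the 2 shares are not matched for depth. In the other pairwise genotype comparisons, between 32 and 35 members lay inside the 1.2-fold bound. When the Q140 effect was averaged over the 3 Msh3 genotypes, 24 carriers against 24 mice without the allele, 34 of 35 members lay inside that bound (75.2% of all genes). There 0 members were called, where 0.035% of all genes were, and 0 had an unadjusted p under 0.05 (5.63% of all genes). Doc2b was the exception and had the smallest p, at 2.19 FPKM in carriers and 2.38 in the other mice (log2 fold change -0.13 ± 0.07, edgeR adjusted p = 0.889). Rab3c at -0.05 ± 0.03 and Syt2 at 0.07 ± 0.05 came next (edgeR adjusted p = 0.892 and 0.929). By role, the median of this averaged effect lay between -0.03, for the Rab3 and C2-domain group, and 0.01.

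**Figure D2:**
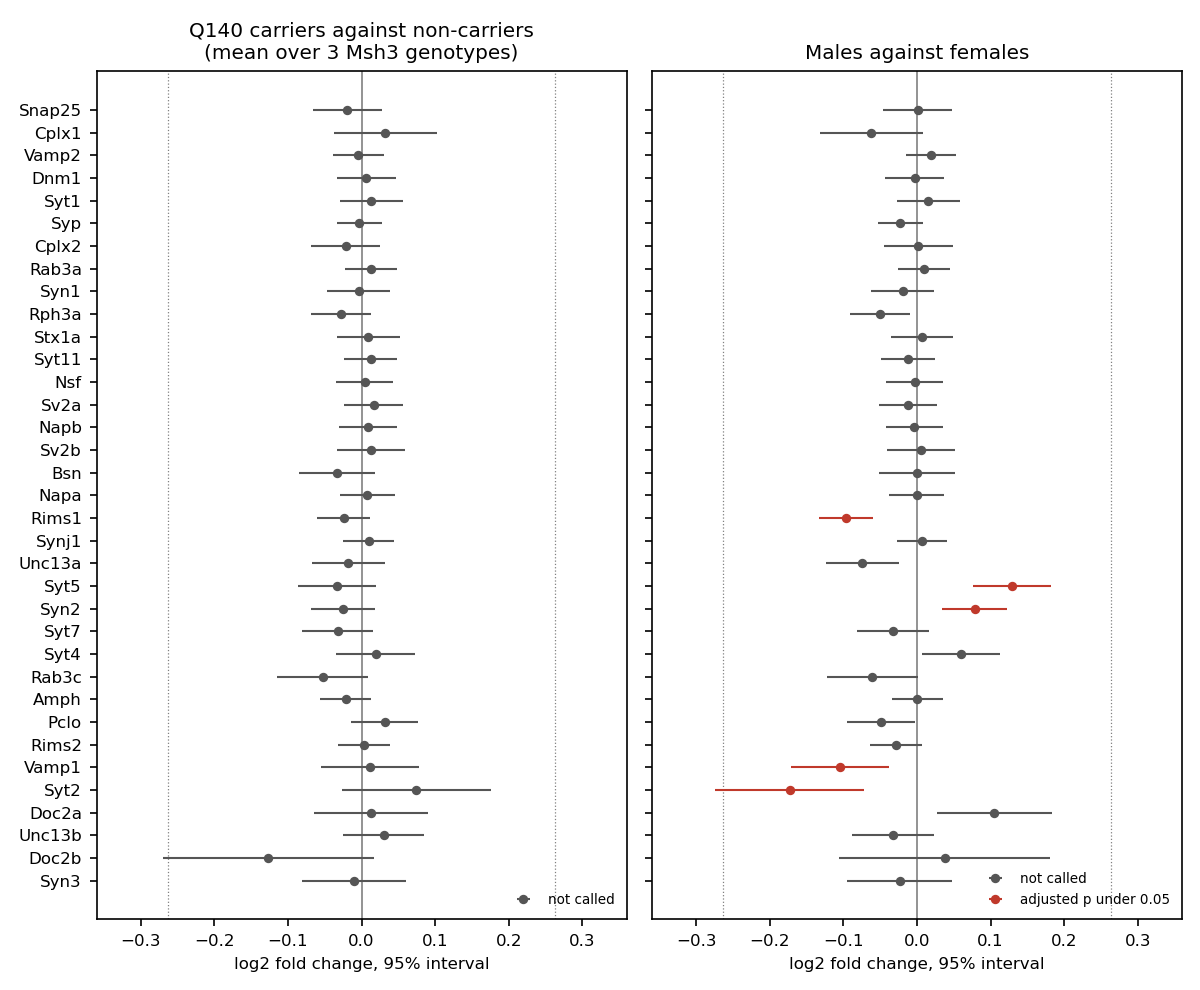
Log2 fold change of each release gene with its 95% interval for Q140 carriers against the other mice (left) and males against females (right); dotted lines mark a 1.2-fold change and red points an edgeR adjusted p under 0.05. On the left every interval covers 0, while on the right 10 do not, those of the 5 red genes and of 5 that did not pass after adjustment (Unc13a, Doc2a, Rph3a, Syt4 and Pclo).

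With an altered Msh3 allele in both arms, the members were also not called for Q140. In Q140 x Msh3+/- against Msh3+/-, 0 of 35 passed (0.015% of all genes did) and 2 had an unadjusted p under 0.05 (6.2% of all genes). These were Rab3c, at 41.2 ± 2.90 FPKM (SD, n = 8; 36.9 lowest, 41.4 median, 45.9 highest) against 44.2 ± 4.33 (n = 9; 39.1, 43.3 and 54.6), a log2 fold change of -0.11 ± 0.05, and Amph at -0.06 ± 0.03 (edgeR adjusted p = 0.78 for both). The highest Rab3c value, 54.6, was that of Msh3+/- female 4. Syt5 followed at -0.07 ± 0.04 (edgeR adjusted p = 0.807). In Q140 x Msh3-/- against Msh3-/-, 0 of 35 passed (0% of all genes) and 0 had an unadjusted p under 0.05 (6.8% of all genes). The smallest p values belonged to the scaffold Bsn at -0.08 ± 0.04, the vesicle-uncoating phosphatase Synj1 at 0.05 ± 0.03 and Syt7 at -0.07 ± 0.04 (edgeR adjusted p from 0.737 to 0.764).

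The altered Msh3 alleles without Q140 gave no calls either; these comparisons share the WT mice with Q140 against WT, so they are not independent of it. In mice labelled Msh3+/- against WT, 0 of 35 passed (0.025% of all genes) and 3 had an unadjusted p under 0.05 (9.5% of all genes). Syt7 was at 49.1 ± 2.57 FPKM (SD, n = 9) against 53.0 ± 4.32 (n = 7), a log2 fold change of -0.11 ± 0.04 (edgeR adjusted p = 0.434). Doc2a stood at -0.15 ± 0.07 and Rims2 at 0.07 ± 0.03 (edgeR adjusted p = 0.469 and 0.475). In mice labelled Msh3-/- against WT, 0 of 35 passed (0.035% of all genes) and 1 had an unadjusted p under 0.05 (5.73% of all genes): Cplx2, at 243 ± 9.70 FPKM (n = 8) against 228 ± 7.22 (n = 7), with a log2 fold change of 0.09 ± 0.04 (edgeR adjusted p = 0.866). Syt5 at -0.08 ± 0.05 and Rab3c at -0.09 ± 0.05 followed (edgeR adjusted p = 0.896 and 0.907).

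On the Q140 allele, where repeat growth is the question that the Msh3 crosses address, the members again gave 0 calls. For Q140 x Msh3+/- against Q140, 0 of 35 passed (0.02% of all genes) and 1 had an unadjusted p under 0.05 (5.14% of all genes). That gene was Syt5, at 50.7 ± 3.42 FPKM (SD, n = 8; 47.3 lowest, 49.2 median, 55.8 highest) against 56.2 ± 4.03 (n = 8; 49.7, 56.9 and 61.2), with a log2 fold change of -0.15 ± 0.05 (unadjusted p = 0.00212, edgeR adjusted p = 0.931). Doc2a (-0.11 ± 0.07) and Syn1 (-0.06 ± 0.04) followed, both at an edgeR adjusted p of 0.964. For Q140 x Msh3-/- against Q140, 0 of 35 passed (0.045% of all genes) and 1 had an unadjusted p under 0.05 (9.07% of all genes). Doc2a was at 10.7 ± 1.09 FPKM (n = 8; 8.98, 10.7 and 12.4) against 12.2 ± 1.39 (n = 8; 9.73, 12.2 and 14.2), with a log2 fold change of -0.19 ± 0.07 (unadjusted p = 0.00732, edgeR adjusted p = 0.383). Snap25 at 0.08 ± 0.04 and Syt5 at -0.09 ± 0.05 came after it (edgeR adjusted p = 0.556 and 0.561). For each of these genes the ranges of the groups overlapped. Exons of Doc2a overlap those of Ino80e on the other strand, and whether the counting used strand is not given in the sources used here. In all, 13 members have such an overlap: Syn1, Syn2, Syn3, Syp, Sv2b, Syt4, Syt7, Unc13a, Pclo, Rab3a, Doc2a, Doc2b and Synj1.

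**Figure D3:**
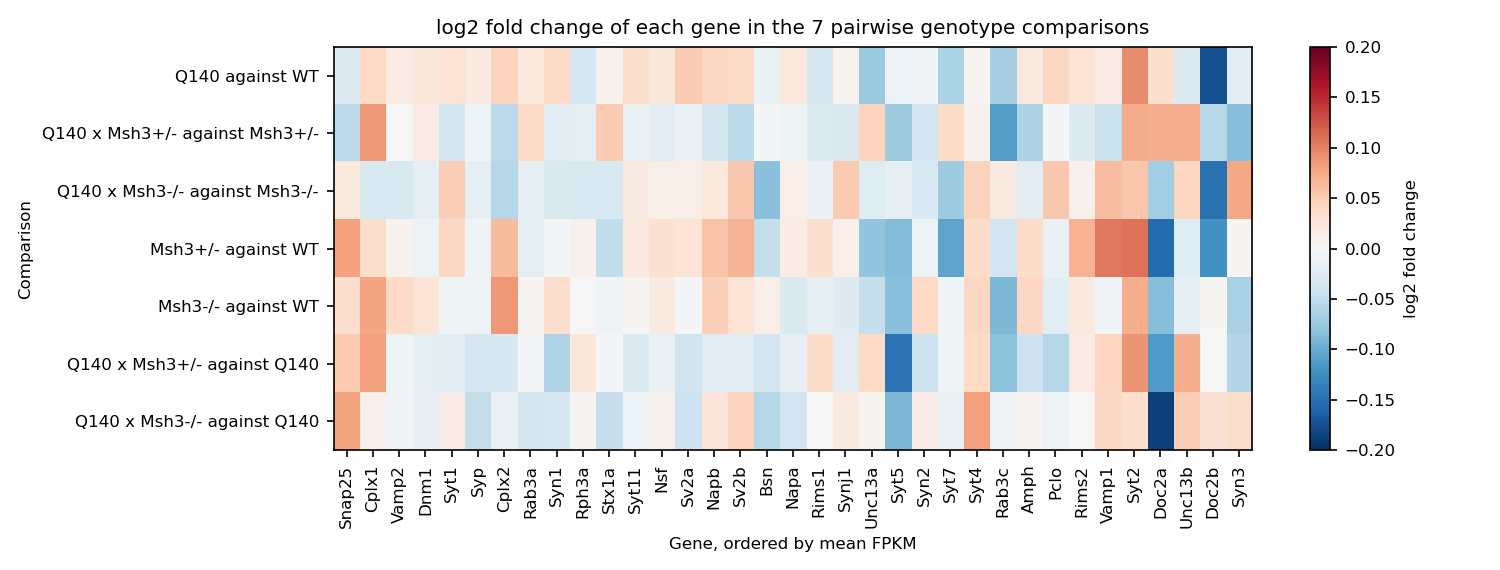
Log2 fold change of the 35 release genes (columns, by mean FPKM) in the 7 pairwise genotype comparisons (rows), coloured from -0.2 to 0.2. No cell is called; the lowest value is -0.19 for Doc2a in Q140 x Msh3-/- against Q140, and the comparisons share control mice.

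The Q140 effect was not found to depend on Msh3 genotype or on sex in these genes. The difference of the Q140 effects in Msh3+/- and in WT mice was called for 0 of 35 members and 0% of all genes, with 0 members at an unadjusted p under 0.05 (6.43% of all genes); Unc13a (0.12 ± 0.06, edgeR adjusted p = 0.771), Amph (-0.08 ± 0.04) and Syt7 (0.10 ± 0.06) had the smallest p. The difference between Msh3-/- and WT was called for 0 of 35 members and 0% of all genes, again with 0 members at an unadjusted p under 0.05 (5.35% of all genes); Cplx2 (-0.10 ± 0.06, edgeR adjusted p = 0.926), Syn1 (-0.07 ± 0.05) and Syn3 (0.10 ± 0.09) led. The difference of the Q140 effects between males and females was called for 0 of 35 members and 0% of all genes. Its unadjusted p was under 0.05 for 4 members (4.48% of all genes). Among them were the large-vesicle synaptotagmin Syt4 at -0.13 ± 0.05, Doc2a at -0.17 ± 0.07 and Vamp1 at 0.13 ± 0.06 (edgeR adjusted p = 0.986 for each).

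Males and females differed in 5 of the 35 genes. Some mice share the stem of their column name, whose meaning the labels do not give. All mice of a shared stem were of the same sex, so differences between stems and between sexes cannot be fully told apart. The edgeR test takes the mice as independent. Rims1, Syt2 and Vamp1 were lower in males, and Syt5 and Syn2 were higher, by less than 1.2-fold in each case. These 5 are 14.3% of the members, beside 5.56% of all tested genes called for sex, 2.73% higher and 2.83% lower in males. No share was computed for genes of similar level. With 1 library left out at a time, 4 members were called in 26 of 48 fits and 5 in 18. The count was 6 in 1 fit and 3 in the fits without Msh3+/- male 2, WT female 1 or WT female 3. The count thus rests in part on single libraries, and the share of all genes called in each of these fits is not given here. DESeq2 called 6 members (7.18% of all genes), adding Unc13a, and limma with voom weights called 5 (7.07% of all genes). The unadjusted p was under 0.05 for 10 members, beside 20.7% of all genes. Over the members the median log2 fold change was -0.003, and the 95% interval lay inside a 1.2-fold change for 34 of 35 (71.7% of all genes), all but Syt2 (fold interval 0.827 to 0.952). The 2 X-linked members did not pass: Syn1 was at -0.02 ± 0.02 (edgeR adjusted p = 0.658) and Syp at -0.02 ± 0.02 (edgeR adjusted p = 0.413).

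Rims1 encodes RIM1, a scaffold that holds vesicles and calcium channels together at the active zone, and lies on chromosome 1 (chr1:22286251-22805994, minus strand, GRCm38, GENCODE M21). It averaged 58.8 FPKM in males (54.1 lowest, 59.2 median, 61.9 highest) and 62.5 in females (55.0, 62.8 and 66.8). All 24 males lay below the female median, and the ranges overlapped. Its log2 fold change was -0.10 ± 0.02 (edgeR adjusted p = 0.000613), and the male mean was the lower one in 6 of 6 genotypes. Leaving out each of the 48 libraries in turn kept the call in 48 of 48 fits.

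Syt5, a calcium-binding synaptotagmin on chromosome 7 (chr7:4539765-4547541, minus strand), went the other way. Males averaged 56.4 FPKM (47.6, 56.6 and 63.2) and females 51.0 (46.0, 50.6 and 59.1), and 22 of 24 males lay above the female median. Its log2 fold change was 0.13 ± 0.03 (edgeR adjusted p = 0.00177). The male mean was the higher one in 6 of 6 genotypes; the difference was widest in WT mice, at 62.0 ± 1.04 FPKM in 4 males and 50.5 ± 4.01 in 3 females, and narrowest in Q140 x Msh3+/- mice, at 51.2 ± 3.76 in 4 males and 50.3 ± 3.54 in 4 females. Whether the sex difference of Syt5 varied among all 6 genotypes was not tested. The call was kept in 48 of 48 fits that each left out 1 library.

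Syn2, the synapsin next in level after Syn1, lies on chromosome 6 (chr6:115134902-115282006, plus strand). It averaged 53.3 FPKM in males (49.2, 52.4 and 58.9) and 50.1 in females (45.3, 49.8 and 58.3), and 23 of 24 males lay above the female median. Its log2 fold change was 0.08 ± 0.02 (edgeR adjusted p = 0.0241, 0.04 at most over the 48 fits with 1 library left out). The male mean CPM was the higher one in 6 of 6 genotypes, but by 0.17 on the log2 scale in WT mice and by 0.01 in Q140 x Msh3+/- mice. Whether the sex difference of Syn2 varied among all 6 genotypes was not tested. The exons of Timp4 overlap those of Syn2 on the opposite strand, so with the strand setting not given, reads of both may be mixed.

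Syt2 and Vamp1 are the calcium sensor and vesicle SNARE known from fast-spiking interneurons. Syt2 lies on chromosome 1 (chr1:134646677-134762593, plus strand) and Vamp1 on chromosome 6 (chr6:125215551-125245964, plus strand). The sequences upstream of their starts are shown because both genes were lower in males and, as described further on, varied together over mice. They come from RefSeq on GRCm38.p6, plus strand, from up to 250 bases before a start, without bases that overlap an annotated exon. Capitals mark the GC box GGGCGG, a short motif of many promoters, searched on both strands; the same windows were searched for the cAMP response element TGACGTCA, the TATA box TATAAA and the E-box CACGTG.
Syt2, first start, chr1:134646362-134646448: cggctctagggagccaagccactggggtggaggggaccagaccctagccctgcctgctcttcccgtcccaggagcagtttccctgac
Syt2, second start, chr1:134709050-134709299: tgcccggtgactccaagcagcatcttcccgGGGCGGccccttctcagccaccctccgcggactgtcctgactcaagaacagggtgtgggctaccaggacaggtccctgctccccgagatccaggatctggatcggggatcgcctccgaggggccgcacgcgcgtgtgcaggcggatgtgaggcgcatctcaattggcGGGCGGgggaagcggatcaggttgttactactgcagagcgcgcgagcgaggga
Vamp1, chr6:125215331-125215550: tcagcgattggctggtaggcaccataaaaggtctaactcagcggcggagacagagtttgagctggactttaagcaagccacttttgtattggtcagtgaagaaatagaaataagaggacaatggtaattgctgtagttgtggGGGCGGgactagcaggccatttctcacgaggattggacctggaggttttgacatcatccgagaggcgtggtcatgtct

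The second Syt2 window held 2 GC boxes and the Vamp1 window 1. The first Syt2 window, of 87 bases, held 0 of the motifs searched. It ends 163 bases before the start, so this 0 does not cover the bases nearest the start. The table held full windows, from 250 bases before to 50 after a start, for 26 of the 35 members (36 windows). A GC box was in 19 of these 36 windows (52.8%) and in 32.7% of the 32851 windows of all genes, and the median GC content was 59.8% beside 52.4%. The TATA box was in 2 member windows (12.4% of all windows), the E-box in 4 (6.02%) and the cAMP response element in 1, that of Syn1 (1.55%). These matches are descriptions of letters and not of bound sites.

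Syt2 averaged 17.3 FPKM in males (11.4, 18.2 and 20.2) and 19.4 in females (15.7, 19.6 and 22.6), and 21 of 24 males lay below the female median. The lowest males were WT male 1 at 11.4, Q140 x Msh3-/- male 4 at 12.5 and Msh3+/- male 2 at 12.7. Its log2 fold change was -0.17 ± 0.05 (edgeR adjusted p = 0.0322). The call was lost without the 3 libraries that stood off along that component, which include the latter 2 mice (log2 fold change -0.13, edgeR adjusted p = 0.0783), and without the 3 libraries with choroid plexus RNA (-0.16, edgeR adjusted p = 0.0658). Leaving out 1 library ended it in 3 of 48 fits, those without Msh3+/- male 2, WT female 1 or WT female 3 (highest edgeR adjusted p = 0.0564).

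Vamp1 averaged 22.5 FPKM in males (17.4, 22.8 and 26.9) and 24 in females (20.6, 23.8 and 28.4), and 20 of 24 males lay below the female median. WT male 1 was again the lowest, at 17.4. Its log2 fold change was -0.10 ± 0.03 with an edgeR adjusted p of 0.0492, just under the threshold. The call was lost without the 3 libraries with choroid plexus RNA (-0.085, edgeR adjusted p = 0.13) and with a random block for the stem of the column name, which some mice share (limma adjusted p = 0.0729). The call held in 17 of the 48 fits that each left out 1 library and was lost in 31, with a log2 fold change between -0.12 and -0.09 and an edgeR adjusted p up to 0.0804. Both genes were lower in males in 6 of 6 genotypes.

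**Figure D4:**
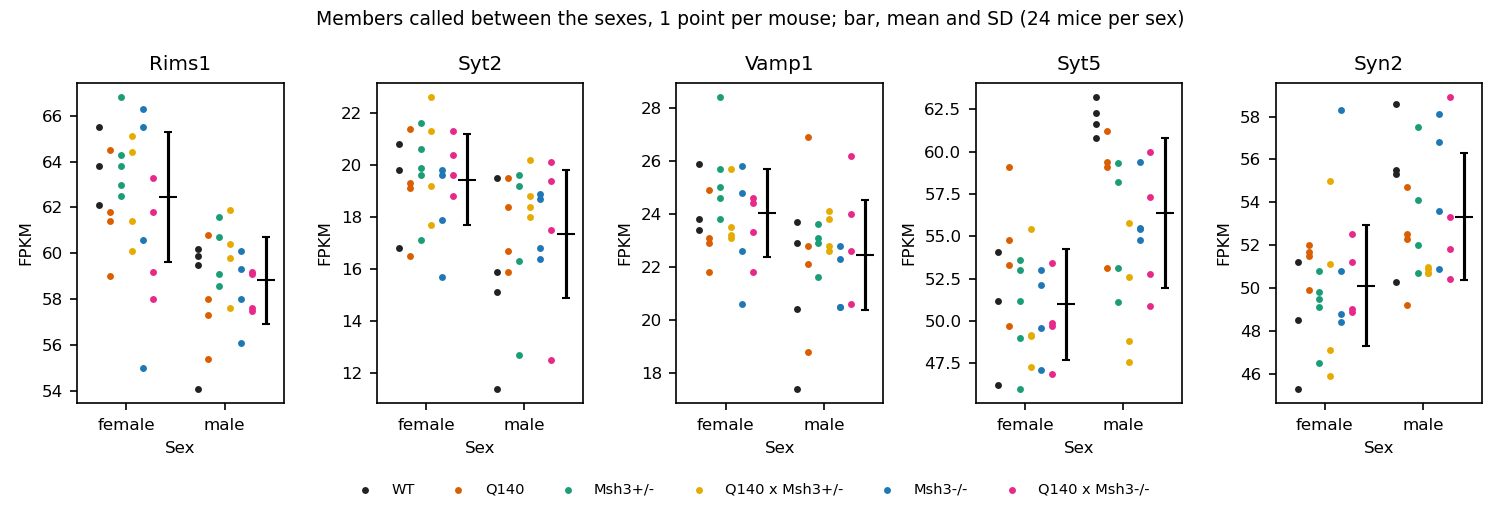
FPKM of the 5 release genes called between the sexes in 24 females and 24 males, coloured by genotype, with the mean and SD of each sex (axes do not start at 0). Rims1, Syt2 and Vamp1 sit lower in males and Syt5 and Syn2 higher, and the sexes overlap for each gene.

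Some other marker genes also differed between the sexes. The summed FPKM of 6 fast-spiking interneuron markers ranged from 89.9 to 133 in males (median 120) and from 109 to 140 in females (median 128); 5 of the 6 were lower in males and 1 was called, the neurofilament Nefh (log2 fold change -0.19 ± 0.05, edgeR adjusted p = 0.028). The calcium buffer Pvalb was at -0.13 ± 0.05 (edgeR adjusted p = 0.0873). All 10 immediate early genes, which neuronal activity induces, were higher in males, with a median log2 fold change of 0.43 and 3 called. General interneuron markers summed to a median of 422 FPKM in males and 421 in females, with 0 of 6 called. Excitatory neuron markers summed to a median of 2238 FPKM in males and 2258.4 in females. Of these 7 markers 5 were lower in males (median log2 fold change -0.01) and 1 was called, Slc17a7, which was higher (0.08). Oligodendrocyte markers were lower in males for 6 of 7 (median log2 fold change -0.11), with 0 called. Of the 7 astrocyte markers 5 were lower in males (median -0.05) and 2 were called, Aldh1l1 (-0.11) and Gja1 (0.08). Of the 7 striatal markers 4 were lower in males (median -0.03) and 1 was called, Drd1, which was higher (0.23). Summed choroid plexus markers ranged from 1.31 to 299 FPKM in males (median 2.81) and from 2.13 to 908 in females (median 3.43). The high values are those of Msh3-/- female 3, Msh3-/- female 4 and WT male 3, the libraries with choroid plexus RNA. Of these markers 7 of 7 were lower in males (median log2 fold change -0.46) and 0 were called, with wide errors (Ttr -0.9 ± 0.91). The part of these marker genes in the sex difference of the release genes was not tested. Each of the 6 plate columns held 3 to 6 males, and with plate column as a factor the same count of 5 members was called. The share of all genes called in that fit is not given here.

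The balance between paralogues was measured as the ratio of their FPKM in each mouse. Syt1 exceeded Syt2 by 11.4-fold in the lowest mouse, 13.4-fold in the median and 21.9-fold in the highest, and Vamp2 exceeded Vamp1 by 11.4-fold, 14.0-fold and 19.5-fold. Syn1 exceeded Syn2 by 3.95-fold to 5.40-fold (median 4.46) and Cplx1 exceeded Cplx2 by 1.29-fold to 1.98-fold (median 1.70). The more abundant paralogue was thus the same in all 48 mice.

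For these 4 ratios, 32 tests were made, and 3 passed after Benjamini-Hochberg adjustment over the 32, all between the sexes. The log2 ratio of Syt2 to Syt1 was lower in males by 0.20, at -3.89 ± 0.23 (SD, n = 24) against -3.69 ± 0.12 in females (two-sided permutation test within genotype, p = 0.00024, adjusted 0.00384). That of Vamp1 to Vamp2 was -3.88 ± 0.16 in males and -3.75 ± 0.11 in females (permutation p = 0.00132, adjusted 0.0141). That of Syn2 to Syn1 was -2.11 ± 0.08 in males and -2.20 ± 0.09 in females (permutation p = 0.00023, adjusted 0.00384). Since Syt2, Vamp1 and Syn2 were themselves called between the sexes, these ratios restate their differences against a partner that was not called. Cplx1 to Cplx2 was at 0.72 ± 0.12 in males and 0.79 ± 0.12 in females (permutation p = 0.0539, adjusted 0.288). Of the 28 genotype tests, 0 passed; the smallest adjusted p was 0.131, for Cplx1 to Cplx2 in Q140 x Msh3+/- against Msh3+/-, higher by 0.14 on the log2 scale (two-sided exact permutation test, unadjusted p = 0.0164).

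Mice that were high in Syt2 were also high in Vamp1 and in Pvalb. With genotype and sex means taken out of log2 CPM, Syt2 and Vamp1 correlated over the 48 mice with Pearson's r = 0.64 and Spearman's rho = 0.67, and Syt2 and Pvalb, the defining calcium buffer of fast-spiking interneurons, with r = 0.87 and rho = 0.87. Over 100000 permutations of the mice, p was 1e-05 for each of these 4 values, the smallest they can give, and the largest adjusted value over the 6 pairs tested was 2e-05. Without the 2 mice farthest from the median of Syt2, r was 0.54 with Vamp1 and 0.85 with Pvalb. Within males alone (24 mice), r was 0.61 and 0.88, and within females alone 0.69 and 0.88. Vamp1 and Pvalb gave r = 0.60 and rho = 0.62 (permutation p = 2e-05 and 1e-05, adjusted 3e-05 and 1.5e-05), and r = 0.64 without the 2 farthest mice. These correlations are of bulk RNA and share the dissection and the library of each mouse. Values without the libraries that stood off along the second principal component are not given for these pairs. Q140 x Msh3-/- male 4 and Msh3+/- male 2, both low in Syt2, are among those libraries.

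**Figure D5:**
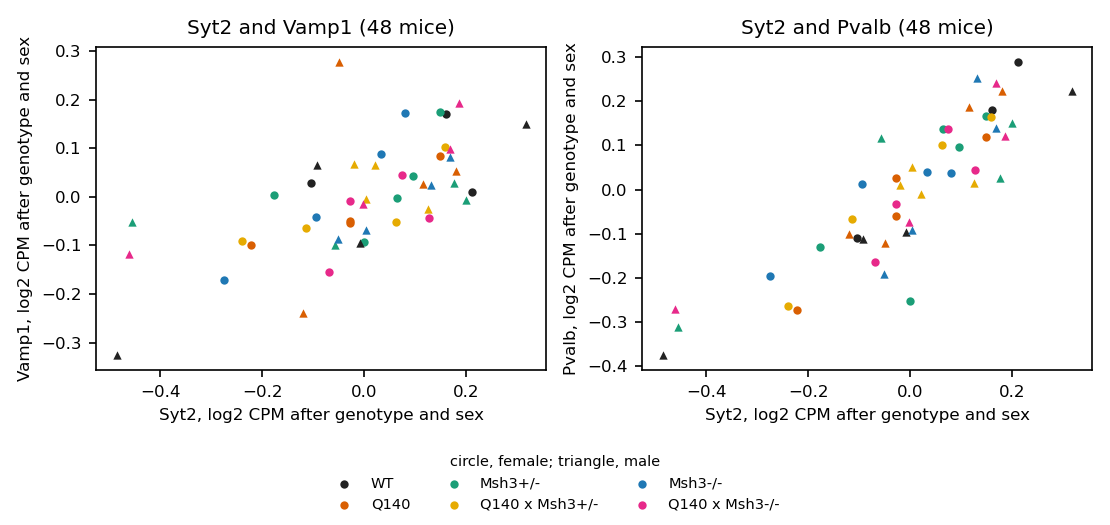
Log2 CPM of Vamp1 (left) and Pvalb (right) against Syt2 in 48 mice after genotype and sex means were taken out; circles are females and triangles males, coloured by genotype. Points rise together (r = 0.64 and 0.87), with 3 males at the low end of Syt2 in both panels.

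The other 3 pairs were tested in the same way. Syn1 and Syp, both on most vesicles, correlated with r = 0.68 and rho = 0.65 (permutation p = 1e-05 each, adjusted 2e-05 and 1.5e-05), with r = 0.64 without the 2 farthest mice. Cplx1 and Vamp1 gave r = 0.49 and rho = 0.46 (permutation p = 0.00055 and 0.00127, adjusted 0.00066 and 0.00152), and r = 0.39 without the 2 farthest mice. Snap25 and Vamp2, partners in 1 SNARE complex, gave r = -0.02 and rho = 0.03 (permutation p = 0.88 and 0.85, adjusted 0.88 and 0.85), and r = 0.05 without the 2 farthest mice.

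Over all 595 pairs of members, the median r was 0.18 and 394 pairs were above 0. The highest and lowest were picked after their values were seen and are given without a test. Syt11 and Nsf (r = 0.90), Sv2a and Nsf (0.88), Syt1 and Syt11 (0.84) and Syt2 and Cplx1 (0.83) were among the highest. Sv2b and Unc13a (r = -0.76), Syt11 and Unc13b (-0.69) and Snap25 and Syt7 (-0.65) were among the lowest. With the 3 libraries that stood off along the second component left out, Syt2 and Cplx1 gave 0.76 and Sv2b and Unc13a gave -0.78. Within the set, some genes were thus high in the mice in which others were low.

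The wider release machinery, 71 further genes of vesicle transport, priming, fusion and endocytosis, was read beside the members. In each of the genotype and interaction comparisons 0 of 71 passed. The smallest p belonged in Q140 against WT to Cask, a presynaptic scaffold kinase (0.11 ± 0.03 on the log2 scale, edgeR adjusted p = 0.822), and with Q140 averaged over Msh3 genotypes again to Cask (0.05 ± 0.02, edgeR adjusted p = 0.642). In the other comparisons of pairs of groups it belonged to the liprin Ppfia1 (-0.11, Msh3+/- against WT), Sv2c (-0.18, Msh3-/- against WT), the active zone scaffold Erc2 (-0.09, Q140 x Msh3+/- against Msh3+/-), Sgip1 (0.11, Q140 x Msh3-/- against Msh3-/-), Syt9 (-0.23, Q140 x Msh3+/- against Q140) and Slc17a6 (0.18, Q140 x Msh3-/- against Q140). Ppfia1 led both differences of Q140 effects (0.13 and 0.10), and Syt10 the Q140-by-sex term (-0.52).

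Between the sexes, 6 of the 71 were called, 4 higher and 2 lower in males (8.45%, beside 5.56% of all genes). The vesicular glutamate transporter Slc17a7 of cortical neurons was higher in males, at 241 FPKM against 227 (log2 fold change 0.08 ± 0.02, edgeR adjusted p = 0.0269). It is also 1 of the 7 excitatory neuron markers, of which 5 were lower in males. Slc17a6, a relative of Slc17a7 known from subcortical neurons, was lower in males, at 5.71 against 6.34 FPKM (-0.15 ± 0.03, edgeR adjusted p = 0.00439). The vesicle GTPase Rab3d (0.14 ± 0.04), Erc2 (0.07 ± 0.02) and Syt16 (0.09 ± 0.03) were also higher in males, with edgeR adjusted p from 0.015 to 0.0471.

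None of the members lies near either altered gene. On chromosome 5, which carries Htt, Pclo lies 19.9 Mb away, Cplx1 73.6 Mb, Rph3a 86.0 Mb and Stx1a farther still; on chromosome 13, which carries Msh3, Rab3c lies 17.7 Mb away, Cplx2 37.8 Mb and Amph 73.1 Mb (GRCm38, GENCODE M21). No member on either chromosome was called in a genotype comparison.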

How the data were processed

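Cortex RNA of 48 mice, 1 library each, was sequenced after Illumina TruSeq stranded preparation, per the labels' protocols. The deposited table of read counts, made by the authors, holds raw whole-number counts per Ensembl gene, and their deposited FPKM table scales the same genes by length and library total. STAR 2.7.5c, HTSeq 0.12.3, SAMtools 1.10 and GRCm38 (mm10) are listed, per the submitters' processing notes; annotation release, strand setting and filters are not given in the sources used here.

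The counts were fitted with edgeR 4.0.16 in R 4.3.3: filterByExpr on genotype, TMM factors, a model of genotype and sex over all 48 mice, and the quasi-likelihood F-test. Calls need an adjusted p under 0.05 (Benjamini-Hochberg) over all 20010 genes tested. Intervals are 95% intervals from the same fit. FPKM gives levels, and differences are log2 fold changes of counts. DESeq2 1.42.0 and limma 3.58.1 (voom with quality weights, a random block for the stem of the column name, and log2 of FPKM plus 0.1 or 1) were alternatives, as were RLE factors, other filters, plate column, the replicate block, genotype alone, males or females alone and fits without doubted libraries. Leaving out each of the 48 libraries for the sex comparison was added after seeing the data. Paralogue ratios and pairs were tested by permutation in Python 3.11.15. The edgeR script was tested on simulated data.

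Genes named in each comparison are the members called or, with fewer than 3 called, the 3 with the smallest p; of the wider machinery, those called or the 1 with the smallest p. Of these, 1 result that this rule would name is not reported here. Sex-linked members, extreme pairs and members outside the 1.2-fold bound were named after their values were seen. Members, lists and tests were chosen with earlier results of these data known. Groups follow the labels, and replicate numbers were given within each sex. p-values take mice as independent, although some share a stem of the column name, always within the same sex. Sequences are from the RefSeq promoter table on GRCm38.p6.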

Additional observations from a re-analysis of the deposited data

Results flagged for a closer look

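Each member's FPKM was screened within each genotype group for a single mouse far from the rest, by Dixon's test, in 210 groups. It flagged 11, and chance alone would give about 10.5 at 1 in 20. Q140 x Msh3-/- male 4, which lies apart on the second principal component, had the lowest Cplx1, at 290 FPKM with the other mice of its group between 393 and 421, and the lowest Syt2, at 12.5 with the others between 17.5 and 21.3. Msh3+/- male 2, also apart there, had the highest Syt7, at 55.3 (others 46.8 to 50.3). Q140 x Msh3+/- female 1 had the highest Cplx2, at 256 (others 220 to 234), and the highest Rab3a, at 253 (others 226 to 239); this library also had the highest summed striatal markers, at 84.6 FPKM. WT female 1 had the lowest Syt1, at 225 (others 247 to 261), and the lowest Amph, at 32.5 (others 35.3 to 36.6). WT male 1 had the lowest Napa, at 58.0 (others 60.3 to 62.0). Msh3+/- female 4 had the highest Rab3c, at 54.6 (others 39.1 to 45.5). Q140 x Msh3-/- male 1 had the highest Syn2, at 58.9 (others 48.9 to 53.3), and Q140 x Msh3-/- male 3 the highest Syn3, at 1.69 (others 1.40 to 1.53).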

How the results depend on the processing

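In the 11 genotype and interaction comparisons, 0 members were called under each alternative that could be fitted, including 0 with the replicate block, which could not be fitted for the sex comparison. Replicate numbers did not pair mice: 115 pairs of mice of the same sex and number from different groups had a mean r of deviations of -0.00771 (-0.243 to 0.111), against 0.00264 for 364 other pairs. Of 623 values of 50 single results (named genes, pairs and ratios), 610 kept their direction and side of the threshold, 9 lost the call and 4 reversed. Most of the 50 were genotype or interaction results that were not called in the main fit, so they had no call to lose. All 9 losses were between the sexes, 3 for Syt2 (9 values kept) and 6 for Vamp1 (6 kept). The reversals, all with females alone and all of uncalled genes, were Doc2a (0.027) and Syn1 (0.001) in Q140 x Msh3+/- against Q140, and Rab3c (0.023) and Syt5 (0.004) in Msh3-/- against WT. Between the sexes, 3 members were called with limma on log2 FPKM plus 0.1 and no filter (adjusted p = 0.0741 for Syt2 and 0.132 for Vamp1), and 3 to 6 with 1 library left out: 3 without Msh3+/- male 2, WT female 1 or WT female 3. Vamp1 lost its call with no filter on counts (adjusted p = 0.0612), log2 FPKM plus 0.1 (0.0747) or plus 1 (0.0756), the random block for the stem (0.0729) and without the choroid plexus libraries (0.13); the cause was not tested. Rims1, Syt5 and Syn2 were called under each alternative run for the sex comparison. For the counts of members with limma and no filter and with 1 library left out, the share of all genes called is not given. Depth did not bar any member from testing, since each had at least 261 counts in every mouse.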
